A study of Mus musculus with 13 samples.

Results

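The 5′ arm miRNAs of the let-7 family were measured in plasma exosomes of mice with and without polymicrobial sepsis. The members were the panel probes named let-7b-5p, let-7d-5p, let-7e-5p, let-7g-5p and let-7i-5p, chosen by name alone, 5 of 68 miRNAs on the panel. The CLP group held 8 male wild-type C57BL/6J mice that underwent cecal ligation and puncture (CLP), an operation that ties and perforates the cecum and lets gut bacteria leak into the peritoneum. The sham group held 5 male wild-type C57BL/6J mice labelled as controls. All 13 samples were taken 24 hours after surgery, and each was treated as 1 mouse. RNA of exosomes pelleted from plasma by ultracentrifugation was read on FirePlex hydrogel particles, which capture each miRNA on its own probe and report fluorescence. Nothing in the labels states how the mice were bled or assayed in batches. Every p-value thus sets the group difference against the spread between these samples only. A batch that followed the groups could not be told apart from CLP.

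let-7 was first found as a gene of developmental timing in Caenorhabditis elegans, and mammals carry several copies on different chromosomes. The mature miRNAs share a seed, the stretch that pairs with target mRNAs, and repress transcripts such as those of RAS, HMGA2 and, in human cells, interleukin-6. The protein LIN28 blocks the maturation of their precursors. let-7 is abundant in blood cells and in vesicles of plasma, and let-7b has been described in mouse neurons as an extracellular ligand of Toll-like receptor 7.

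All 5 members had a mouse mature sequence in RefSeq (GRCm38.p6), shown here because the members differ so little that probes for them could share signal. Capitals mark the seed, bases 2 to 8.
let-7b-5p: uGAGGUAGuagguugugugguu
let-7d-5p: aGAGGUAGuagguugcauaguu
let-7e-5p: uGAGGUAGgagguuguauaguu
let-7g-5p: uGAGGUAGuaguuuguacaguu
let-7i-5p: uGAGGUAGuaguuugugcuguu

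The seed GAGGUAG was the same in all 5, and no other panel miRNA with a mouse entry of the same name carried it (48 panel miRNAs had such an entry). The members were identical at 15 of 22 positions, counted from the 5′ end. They differed from each other at 2 positions (let-7g-5p and let-7i-5p) to 6 positions (let-7d-5p and let-7i-5p). With the let-7g-5p base first, let-7i-5p differed from it by A17G and A19U. Several close relatives have no probe in the rows used here. let-7e-5p differs from let-7a-5p by 1 substitution, U9G with the let-7a-5p base first. let-7b-5p differs from let-7c-5p by 1 substitution, A17G with the let-7c-5p base first. The probes carry human names and their sequences were not used here, so how far a probe reads a relative of its target was not tested, and each member's value is uncertain to that extent.

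The 5 genes lie apart in the mouse genome (GRCm38.p6). The mature let-7b-5p lies at chr15:85707325-85707346 on the plus strand, inside the non-coding gene Lncppara and 687 bases from let-7c-5p. let-7d-5p lies at chr13:48536078-48536099 on the minus strand, with let-7f-5p and let-7a-5p on the same strand 1789 and 2139 bases away. let-7e-5p lies at chr17:17830366-17830387 on the plus strand, within the span of the protein-coding gene Spaca6, between miR-99b-5p at 150 bases and miR-125a-5p at 429 bases. let-7g-5p lies at chr9:106178846-106178867 on the plus strand, within the span of Wdr82, which encodes a subunit of a histone methyltransferase complex. let-7i-5p lies at chr10:122985698-122985719 on the minus strand. No miRNA of another gene lay within 10 kb of let-7g-5p or let-7i-5p. Of all these neighbours, miR-125a-5p is the one with a probe on the panel.

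Summed over the panel, raw signal ranged from 33043 to 74685 units in CLP mice and from 10598 to 45121 units in sham mice. Precision is limited by how few mice there were. No value of a let-7 member was at 0. The markers of the other sources a plasma sample can hold were also present: none of the 3 erythroid markers on the panel (of 4 listed), both leukocyte markers, the hepatocyte marker or the endothelial and platelet marker was at 0. The 3 erythroid markers together held 18.9% to 30.1% of panel signal in CLP mice and 29.4% to 48.2% in sham mice. This is a share, and the raw ranges of all 3 ran higher in CLP mice, with overlap. miR-451a read 3254 to 5150 units in CLP mice and 1845 to 4535 in sham mice. In the same order miR-486-5p read 1814 to 4265 and 662 to 3055 units, and miR-16-5p 4375 to 6286 and 2202 to 5657 units. The endothelial and platelet marker held 1.57% to 3.35% in CLP mice and 0.745% to 1.03% in sham mice, without overlap. The 2 leukocyte markers held 4.66% to 6.53% in CLP mice and 2.55% to 5.30% in sham mice, and the hepatocyte marker 0.458% to 2.91% in CLP mice and 0.314% to 1.07% in the 4 sham mice with a value. The part of these sources in the let-7 results was not tested. The panel holds no marker of the vesicles themselves, so the label plasma exosome could not be checked. In the authors' second table the columns of CLP mouse 6 and CLP mouse 7 match each other's raw columns, so the identity of these 2 mice is unsettled, while group values are unaffected.

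The first question was how abundant each member was and in what order. Mean signal ranked let-7b-5p highest, then let-7i-5p, let-7g-5p, let-7d-5p and let-7e-5p in CLP mice. In sham mice let-7g-5p came before let-7i-5p. Brightness depends on the probe as well as on the amount of RNA, so this is an order of signals and not of molecules.

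The top member, let-7b-5p, had raw signals of 1825, 1956, 2217, 1842, 2554, 2770, 1393 and 916 units in CLP mice 1 to 8 (lowest 916, median 1899, highest 2770), against 189, 608, 551, 455 and 1211 units in sham mice 1 to 5. Sham mouse 5 lay above CLP mouse 8, so the groups overlapped. Its median rank among the 68 miRNAs was 10 in CLP mice and 13 in sham mice.

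let-7i-5p ran from 602 units (CLP mouse 8) through a median of 1414 to 1876 units (CLP mouse 3) in CLP mice. It read 221, 506, 380, 308 and 692 units in the sham mice, of which the fifth lay above the lowest CLP mouse. let-7g-5p ran from 583 through 1133 to 1394 units in CLP mice, against 178, 623, 477, 282 and 896 units in sham mice. Sham mouse 2 exceeded CLP mouse 8, and sham mouse 5 exceeded both CLP mouse 7 and CLP mouse 8. let-7b-5p, let-7g-5p and let-7i-5p are thus all members whose raw groups overlapped.

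let-7d-5p, made from a cluster with let-7a and let-7f, read 683, 623, 770, 804, 862, 770, 426 and 238 units in CLP mice 1 to 8. It read 109, 192, 132, 108 and 159 units in the sham mice, so every CLP mouse lay above every sham mouse. let-7e-5p, the dimmest member, read 253, 270, 222, 191, 311, 401, 154 and 109 units in CLP mice and 23.5, 75.3, 29.7, 37.8 and 49.3 units in sham mice. Its groups did not overlap either. Over the panel, 15.2% of the 66 miRNAs tested on the raw scale had groups without overlap. The plot of let-7 signal by mouse shows both gaps.

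**Figure D1:**
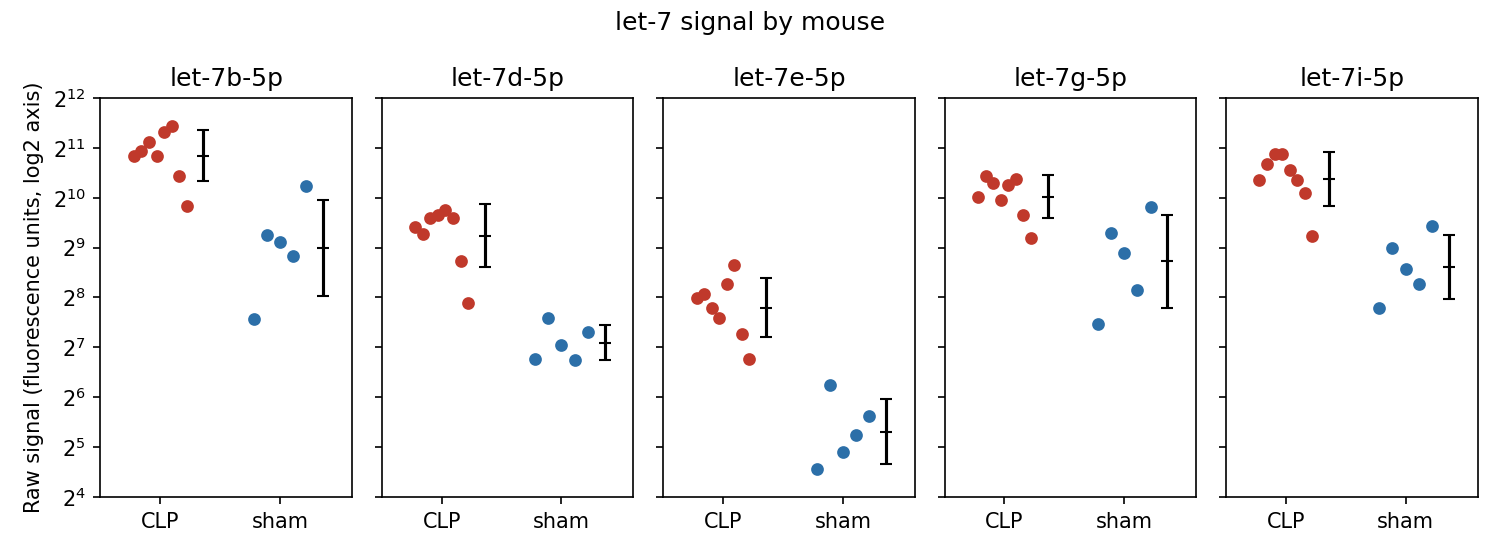
Raw signal of each let-7 member (fluorescence units, log2 axis) in 8 CLP mice (left, red) and 5 sham mice (right, blue), with the mean and SD of the log2 values beside the points. let-7d-5p and let-7e-5p have no sham mouse above the lowest CLP mouse (238 and 109 units), whereas the other 3 members overlap. Of the 66 miRNAs tested on this scale 15.2% had groups without overlap, and scaled to the panel all 5 members overlapped.

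The order of the dim members was the same in all mice. let-7e-5p was the lowest and let-7d-5p the next in 13 of 13. The order of the bright members varied. let-7b-5p lay above let-7i-5p in 7 of 8 CLP mice and 4 of 5 sham mice, and above let-7g-5p in 8 of 8 CLP mice and 4 of 5 sham mice. let-7g-5p lay above let-7i-5p in 1 of 8 CLP mice and 3 of 5 sham mice. The order b, i, g, d, e was that of 6 CLP mice and 1 sham mouse, and the 5 sham mice showed 4 different orders. In CLP mice let-7b-5p and let-7i-5p, neighbours in this order, differed by a mean log2 ratio of 0.47 with an SD of 0.34. In sham mice the 3 bright members were closer still: the mean log2 ratio of let-7g-5p to let-7i-5p was 0.11 with an SD of 0.31.

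The second question was whether CLP mice carried more or less of each member. On the raw scale all 5 members were higher in CLP. Fitted with limma across all 66 miRNAs tested on the raw scale, 5 of 5 rose, where 90.9% of the tested miRNAs did so. The family's median change was 1.85 log2 units, against 1.87 for all miRNAs tested. let-7e-5p was 5.61-fold higher in CLP mice (log2 2.49, SE 0.43, limma adjusted p = 5.78e-05) and let-7d-5p 4.43-fold (log2 2.15, SE 0.41, limma adjusted p = 0.000143). let-7b-5p was 3.60-fold higher (log2 1.85, SE 0.45), let-7i-5p 3.41-fold (log2 1.77, SE 0.42) and let-7g-5p 2.46-fold (log2 1.30, SE 0.44, limma adjusted p = 0.00835). All 8 CLP mice lay above the sham mean of every member. Groups did not overlap for 2 of the 5, against 15.2% of the tested miRNAs. Leaving out sham mouse 1 and sham mouse 4, the weakest sham samples, let-7g-5p did not pass (0.69, limma adjusted p = 0.126).

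Each mouse was next scaled to its own geometric mean, taken over 60 miRNAs that no mouse had at 0, so that a change is relative to the panel. On that scale 1 of 5 members fell and 0 rose, whereas 20% of 65 tested miRNAs fell and 10.8% rose. None of the 5 had groups without overlap, against 7.69% of the tested miRNAs. The exact permutation test called the same 1 member alone (adjusted p = 0.0202), where over the 65 miRNAs it called 6 higher and 14 lower. Among the other members the smallest unadjusted limma p was 0.129, for let-7e-5p. let-7g-5p had scaled log2 signals of 9.54, 9.29, 9.14, 8.75, 9.13, 9.49, 9.21 and 9.66 in CLP mice and 9.68, 10.40, 9.64, 10.22 and 9.62 in sham mice. CLP mouse 8 lay between the sham mice, and the other 7 CLP mice lay below all of them. The member was 1.56-fold lower relative to the panel (log2 -0.64, SE 0.20, limma adjusted p = 0.0247), but higher on the unscaled signal.

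The other members did not pass. let-7e-5p was 0.55 log2 units higher (SE 0.34, limma adjusted p = 0.212) and let-7d-5p 0.21 higher (SE 0.28). let-7b-5p was at -0.09 (SE 0.22) and let-7i-5p at -0.17 (SE 0.20), and both were positive unscaled, with the authors' values, with the 75th percentile and with quantile normalization. let-7d-5p was at -0.083 without sham mouse 5. The median over all 65 miRNAs was 0.10 and that of the 5 members -0.09. The call of let-7g-5p ended with quantile normalization, with median scaling, at the 75th percentile and in the authors' values (limma adjusted p = 0.0698, 0.0669, 0.0594 and 0.0548), and without sham mouse 2 (-0.52, limma adjusted p = 0.0807). It also ended without both of the weakest sham mice (-0.61, limma adjusted p = 0.0673). Over all its alternatives the adjusted p ran from 0.0134 to 0.0841. With the 75th percentile and with the authors' values the median over all miRNAs was 0.26, and relative to it let-7g-5p lay at -0.68 under both and let-7e-5p at 0.51 under both. Both scalings shift all members alike, so they are not independent of each other.

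**Figure D2:**
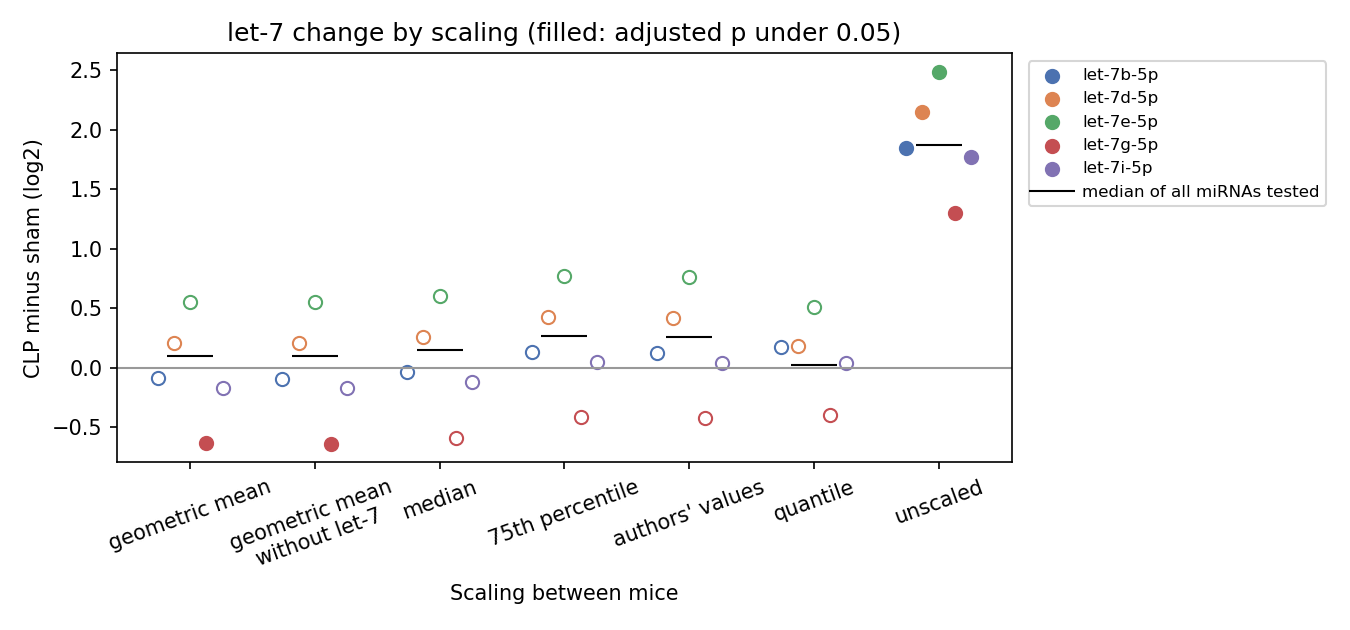
Change of each let-7 member (CLP minus sham, log2, limma) under 6 scalings between mice and on the unscaled signal, with the median of all tested miRNAs as a black dash. let-7e-5p is the highest and let-7g-5p the lowest member in every column, at 0.55 and -0.64 with the geometric mean and at 2.49 and 1.30 unscaled. A factor per mouse shifts all members alike, so only quantile normalization could have changed this order.

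The third question was how the mix within the family differed, which a factor per mouse cannot affect. In CLP mice let-7e-5p made up more of the summed let-7 signal and let-7g-5p less. let-7e-5p held 4.47% ± 0.88 (SD, n = 8) of it in CLP mice and 2.74% ± 0.92 (SD, n = 5) in sham mice. let-7g-5p held 20.6% ± 2.23 (SD, n = 8) in CLP mice and 27.9% ± 3.46 (SD, n = 5) in sham mice. In 6 of 8 CLP mice the let-7g-5p share was smaller than in any sham mouse, and in 6 of 8 the let-7e-5p share was larger than in any sham mouse. These shares are a description without a test.

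The shares of the other members overlapped more. let-7b-5p held 36.4% ± 3.19 (SD, n = 8) in CLP mice and 34.0% ± 5.75 (SD, n = 5) in sham mice. let-7i-5p held 26.5% ± 3.99 (SD, n = 8) in CLP mice and 25.8% ± 2.93 (SD, n = 5) in sham mice. let-7d-5p held 12.0% ± 1.53 (SD, n = 8) in CLP mice and 9.49% ± 3.58 (SD, n = 5) in sham mice, where it ranged from 5.28% in sham mouse 5 to 15.2% in sham mouse 1. The family as a whole held 8.74% ± 1.13 (SD, n = 8) of the panel signal in CLP mice and 7.37% ± 1.16 (SD, n = 5) in sham mice, and the ranges overlapped (7.41% to 10.8% in CLP mice and 6.17% to 8.72% in sham mice).

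**Figure D3:**
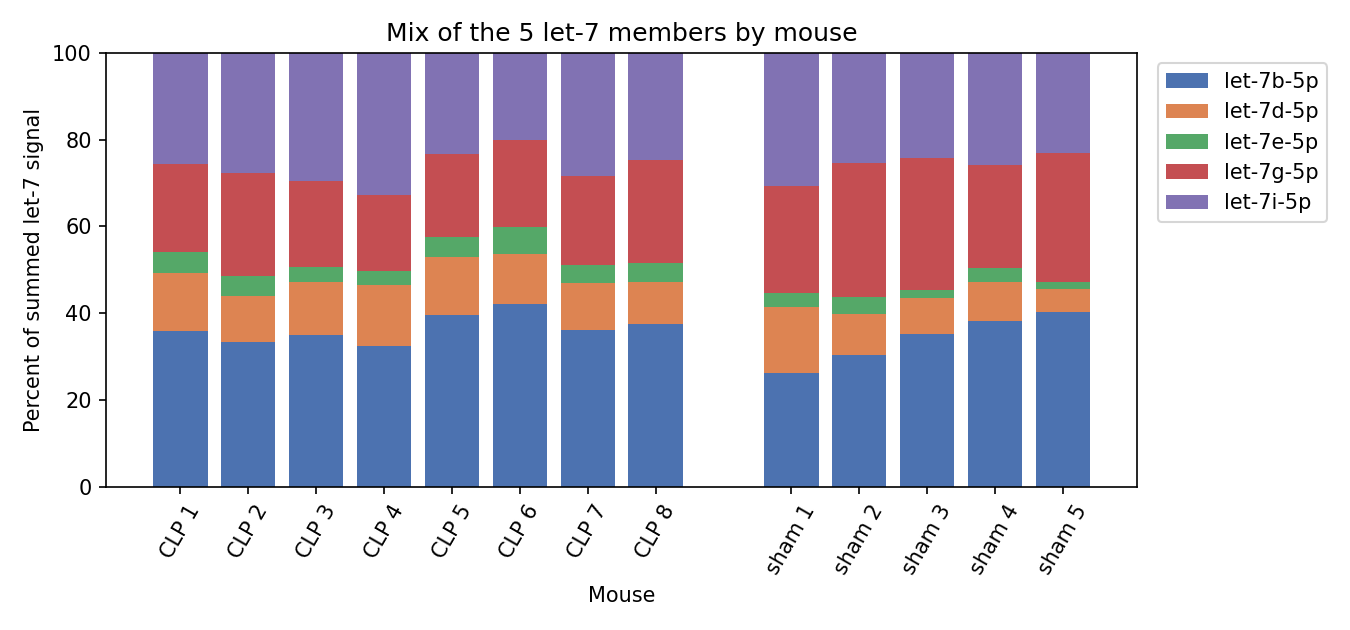
Percent of the summed let-7 signal held by each member in 8 CLP mice (left) and 5 sham mice (right). The let-7g-5p segment spans 17.3% to 23.8% in CLP mice and 23.7% to 31.1% in sham mice, and the let-7e-5p segment 3.36% to 6.09% in CLP mice and 1.64% to 3.76% in sham mice.

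Ratios between members gave the test of the mix. The log2 ratio of every pair of the 65 miRNAs was fitted with limma and adjusted over all 2080 pairs, which share members and so are not independent. Of the 10 pairs within the family 2 passed, against 29.1% of all pairs, and the median absolute change was 0.51 log2 units within the family and 0.62 over all pairs. The count of let-7 pairs called is thus no larger a share than that of the panel, and both pairs that passed have let-7g-5p as the divisor.

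The signal of let-7e-5p per unit of let-7g-5p was 0.243, 0.194, 0.177, 0.194, 0.253, 0.302, 0.193 and 0.186 in CLP mice 1 to 8. In sham mice 1 to 5 it was 0.132, 0.121, 0.0623, 0.134 and 0.0550. The lowest CLP mouse lay above the highest sham mouse, 1 of 10 let-7 pairs without overlap, against 9.86% of all pairs. The ratio was 2.28-fold higher in CLP mice (log2 1.19, SE 0.28, limma adjusted p = 0.00679), and higher than the sham mean in 8 of 8. It passed in each fit that left out 1 mouse, with changes from 0.996 to 1.32 log2 units, and without the 2 weakest sham mice. Over all its 20 alternatives the adjusted p ran from 0.00295 to 0.0686, and it missed the threshold in 1 of them.

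The signal of let-7d-5p per unit of let-7g-5p ran from 0.408 through a median of 0.597 to 0.815 in CLP mice. It was 0.613, 0.308, 0.277, 0.382 and 0.177 in sham mice, where sham mouse 1 alone lay within the CLP range and sham mouse 5 was the lowest. The ratio was 1.80-fold higher in CLP mice (log2 0.85, SE 0.30, limma adjusted p = 0.0425). That call ended in 9 of 13 fits that left out 1 mouse (sham mouse 2, 3 or 5, or CLP mouse 1, 3, 4, 5, 6 or 7), with changes of 0.63 (without sham mouse 5) to 0.86 log2 units (without CLP mouse 7) in these 9. Over all its alternatives the adjusted p ran from 0.0157 to 0.109.

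The remaining 8 pairs did not pass in limma. let-7b-5p over let-7g-5p was 0.55 higher (SE 0.22, limma adjusted p = 0.0734), with 1.40 to 2.09 in CLP mice and 0.976 to 1.61 in sham mice. An exact permutation test over the same 2080 pairs, added after the data were seen, called it (adjusted p = 0.0157). So did limma without sham mouse 4 (0.65, adjusted p = 0.0474) and among the 43 miRNAs with at least 10 raw units in each mouse (0.55, adjusted p = 0.0417). let-7e-5p over let-7i-5p was 0.72 higher (SE 0.30, limma adjusted p = 0.0793) and passed without CLP mouse 4 (0.82, limma adjusted p = 0.0471), and let-7b-5p over let-7e-5p 0.64 lower (-0.64, SE 0.29). let-7g-5p over let-7i-5p was at -0.47 (SE 0.24), let-7d-5p over let-7i-5p at 0.38 (SE 0.24), let-7d-5p over let-7e-5p at -0.34 (SE 0.26) and let-7b-5p over let-7d-5p at -0.30 (SE 0.31). The smallest change was that of let-7b-5p over let-7i-5p, at 0.08 (SE 0.26), and its sign turned without sham mouse 1 (-0.073) and without CLP mouse 6 (-0.0055).

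**Figure D4:**
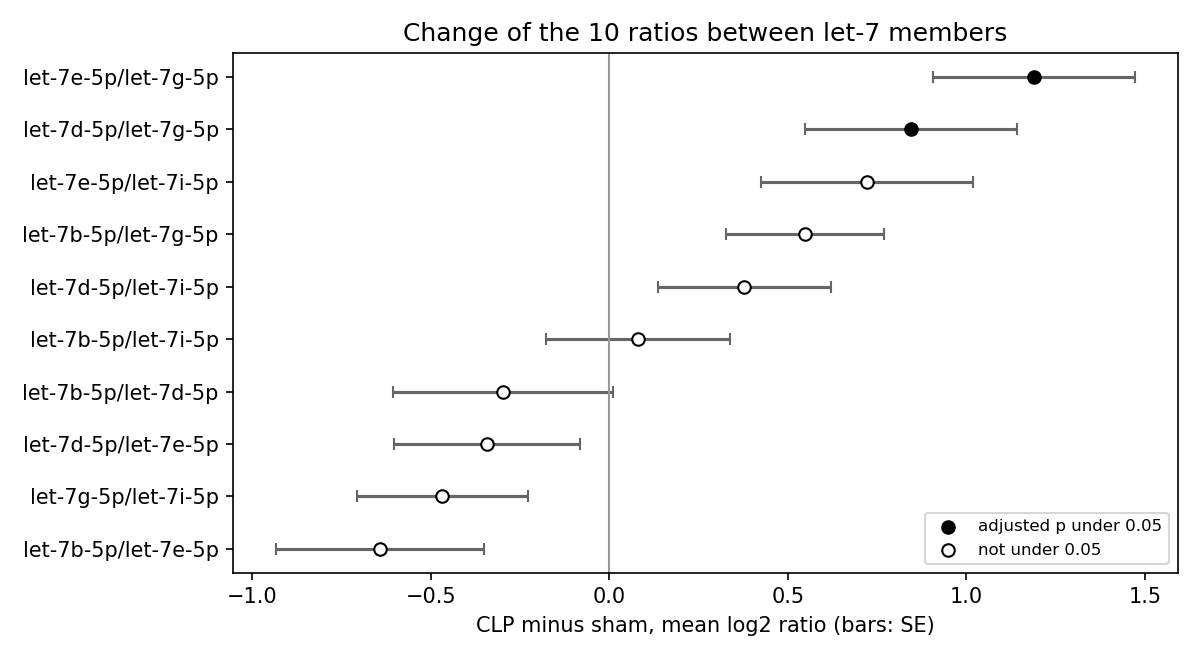
Change of the 10 log2 ratios between let-7 members (CLP minus sham, limma, bars are SE). Filled points passed at an adjusted p under 0.05 over all 2080 pairs: let-7e-5p over let-7g-5p at 1.19 and let-7d-5p over let-7g-5p at 0.85.

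Each member's signal was also set against the level of the mouse, since the level differed between groups. The level was taken as the mean log2 raw signal of the 55 miRNAs above 0 in all mice that are not let-7. Regressed on this level within groups, log2 signal had slopes of 0.42 (SE 0.21) for let-7e-5p and 0.49 (SE 0.16) for let-7d-5p. Slopes were 0.67 (SE 0.10) for let-7i-5p, 0.75 (SE 0.12) for let-7g-5p and 0.78 (SE 0.15) for let-7b-5p. The median over the non-members with at least 10 raw units in each mouse was 0.87. Among all 43 miRNAs with at least 10 units, let-7e-5p ranked 2 and let-7d-5p 4 from the lowest slope. Taken in CLP mice alone the slope of let-7d-5p was 0.97 and that of let-7e-5p 0.68, against 0.23 and 0.26 in sham mice alone. The slope was 0.72 for let-7b-5p, 0.63 for let-7g-5p and 0.88 for let-7i-5p in CLP mice alone, against 0.82, 0.82 and 0.55 in sham mice alone. The order of slopes thus differed between groups, with let-7g-5p lowest and let-7d-5p highest in CLP mice. Differences between slopes, of members or of groups, were not tested.

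CLP mouse 8 and sham mouse 5 are the mice whose levels cross, at 7.14 log2 units in the CLP mouse and 7.86 in the sham mouse. let-7d-5p read 238 units in CLP mouse 8 and 159 in sham mouse 5, and let-7e-5p read 109 units in CLP mouse 8 and 49.3 in sham mouse 5. let-7b-5p (916 against 1211 units), let-7g-5p (583 against 896) and let-7i-5p (602 against 692) were lower in CLP mouse 8 than in sham mouse 5. This sets 1 mouse against 1 and has no replicate. With the level as a covariate, limma on the unscaled signal called let-7e-5p (1.68, SE 0.47, adjusted p = 0.0264) and let-7d-5p (1.19, SE 0.37, adjusted p = 0.0468) higher. Of the 66 miRNAs tested it called 6 higher and 4 lower. The fit gives both groups the same slope, although the slopes taken by group were unlike. Levels overlap only through CLP mouse 8 and sham mouse 5, so group and level can hardly be told apart by it. In that fit let-7i-5p was at 0.47, let-7b-5p at 0.33 and let-7g-5p at -0.16, and none of these passed. The ratio of let-7e-5p to let-7g-5p passed with the level as a covariate (1.84, SE 0.40, limma adjusted p = 0.0165), and that of let-7d-5p to let-7g-5p did not (1.34, SE 0.46, limma adjusted p = 0.0777). Over the panel 173 of 2080 pairs passed with the level, and the same limit holds for them.

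**Figure D5:**
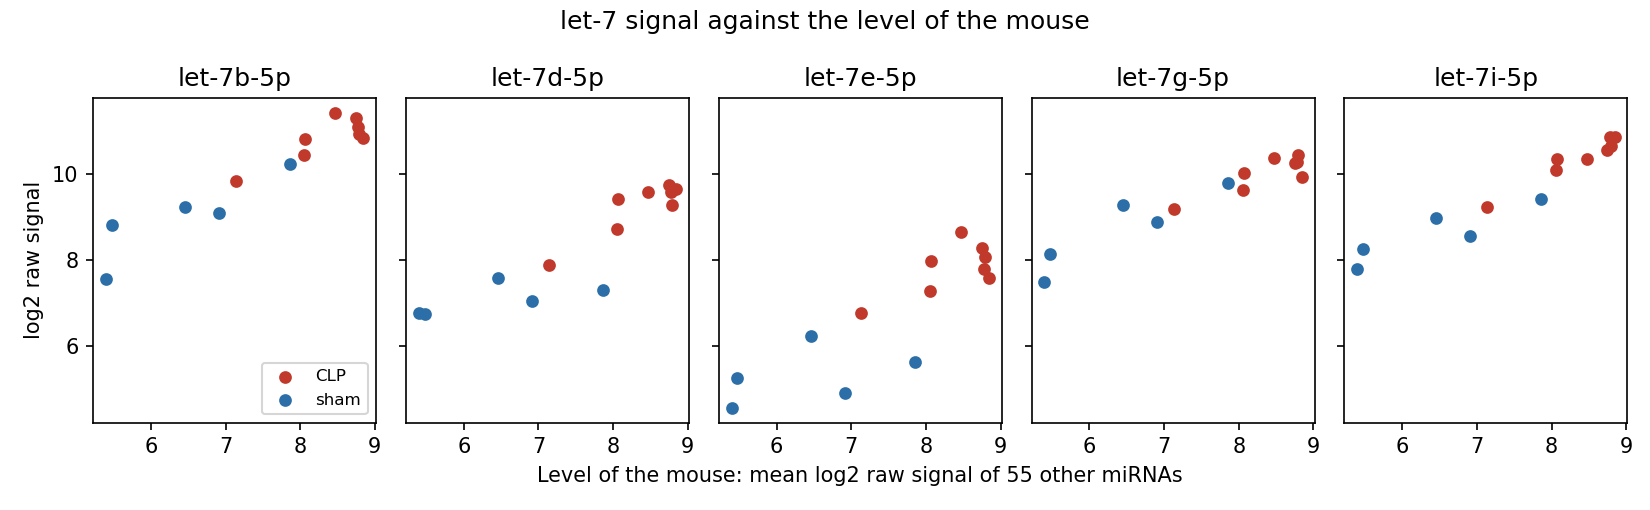
log2 raw signal of each let-7 member against the level of the mouse (mean log2 raw signal of 55 other miRNAs), CLP mice in red and sham mice in blue. Sham mouse 5, at a level of 7.86, lies above CLP mouse 8, at 7.14, for let-7b-5p, let-7g-5p and let-7i-5p and below it for let-7d-5p and let-7e-5p.

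Each member was also set against the 64 other tested miRNAs, in the same fit of all pairs, where 29.1% passed. Of the 64 ratios of let-7g-5p to another miRNA, 25 passed as lower in CLP and 1 as higher, 40.6% in all. For let-7e-5p 13 passed as higher and 1 as lower (21.9% in all), and for let-7d-5p 10 as higher and 2 as lower (18.8%). For let-7i-5p 3 passed as higher and 6 as lower (14.1%), and for let-7b-5p 5 as higher and 3 as lower (12.5%). The share that passed thus lay above that of all pairs for let-7g-5p and below it for the other 4 members. Over all 64 ratios the median change was -0.74 for let-7g-5p and 0.48 for let-7e-5p. In the scaled fit let-7g-5p lay at -0.74 and let-7e-5p at 0.45 relative to the median of all miRNAs. The ratios thus largely restate that fit and are not a further test.

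let-7e-5p is encoded beside miR-125a-5p, a miRNA that restrains inflammatory signalling in macrophages, and the 2 are made from a common transcript. miR-125a-5p was 5.96-fold higher unscaled (log2 2.58, SE 0.51), near the 5.61-fold of let-7e-5p. Their ratio was at -0.09 (SE 0.52, limma adjusted p = 0.917), with an SD of 0.74 in CLP mice and 1.36 in sham mice. An SE of that size leaves the direction of this ratio undetermined. The ratio of let-7g-5p to miR-125a-5p was 2.42-fold lower in CLP (log2 -1.28, SE 0.38, limma adjusted p = 0.0193). miR-125a-5p was dim in sham mice, with a mean log2 raw signal of 2.66 (SD 1.28) against 5.31 for let-7e-5p. It was thus not among the 43 miRNAs with at least 10 raw units in each mouse. Its fold and both ratios rest on these dim sham readings and are uncertain to that extent.

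Likeness across mice was measured as the SD of the log2 ratio over the 13 mice, where a small SD means that both signals moved alike, among the same 43 miRNAs. let-7g-5p was closest to miR-17-5p (SD 0.22) and miR-20a-5p (SD 0.25), both of the miR-17 seed family, against a median SD of 0.57. Its nearest family member was let-7b-5p (SD 0.36), and let-7e-5p ranked 36 of 42 (SD 0.73). let-7e-5p was closest to its family member let-7d-5p (SD 0.40) and, outside the family, to miR-26a-5p (SD 0.47) and miR-15a-5p (SD 0.52). let-7d-5p was closest to miR-151a-5p (SD 0.29), then to its family member let-7i-5p (SD 0.36), and miR-26a-5p was the next non-member (SD 0.39). let-7i-5p and let-7b-5p shared both nearest non-members, miR-15a-5p (SD 0.26 and 0.32) and miR-20a-5p (SD 0.27 and 0.38). These values include the group difference and are a description without a test.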

How the data were processed

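The deposited raw values are linear fluorescence intensity, 1 per miRNA and sample, with no scaling between samples. Per the labels' protocols, exosomes were purified by ultracentrifugation, RNA was extracted with a column kit, and captured miRNAs were ligated to adapters, released and amplified with a biotinylated primer. How the particles were scanned and whether background was subtracted was not given in the sources used here. Each raw column was matched to the column of the authors' second intensity table with the steadiest ratio to it over the brighter miRNAs. The median ratio of the matched columns was 0.450 to 4.31. Whether 1 factor per sample holds for the dim miRNAs was not checked. The raw table has 1 empty cell, left empty.

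Each sample was scaled by its geometric mean over the 60 miRNAs that were never at 0, floored at the 5th percentile of positive values (2.38 units scaled, 2.10 raw), and put on log2. A miRNA was tested if 5 or more samples exceeded the floor (65 scaled, 66 unscaled). Two-sided tests used lmFit and eBayes of limma 3.58.1 (R 4.3.3) with no covariate, and p-values were adjusted by Benjamini-Hochberg over all miRNAs or all 2080 pairs, with a threshold of 0.05. Exact permutation tests ran over all 1287 splits. Python 3.11.15 did the rest. Fits were tested on simulated data. Named miRNAs are the 5 members, panel miRNAs co-transcribed with let-7 genes, and for each member the 2 most alike others. Alternatives changed the scaling, floor, filter, test, replicate block, level and samples. The members, lists and tests were chosen with earlier results of these data known.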

Additional observations from a re-analysis of the deposited data

How the results depend on the processing

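The panel calls moved with the scaling: geometric mean scaling called 7 higher and 13 lower, the median 4 and 6, quantile normalization 5 and 7, and both the 75th percentile and the authors' values 13 and 6. Without the 2 weakest sham mice 4 were called higher. Leaving out 1 mouse gave 3 to 9 higher and 8 to 16 lower, with 3 and 8 without sham mouse 2, and 4 higher without sham mouse 1 or CLP mouse 4, 5 or 7. The unscaled count of 60 higher, of 66 tested, became 36 without the 2 weakest sham mice (56 to 63 leaving out 1 mouse, with 0 lower). With the level as a covariate it became 6 higher and 4 lower. Of the 43 brightest miRNAs 39 were called higher, close to the 90.9% over all tested. The 605 pairs called, of 2080, became 396 without the 2 weakest sham mice and 173 with the level (463 to 638 leaving out 1 mouse). Among the 43 brightest miRNAs 335 pairs were called, but from far fewer pairs, so that count is not a loss against 605. The exact permutation test called 588 of 2080 pairs, and 3 of the 10 let-7 pairs. Among the 43 brightest miRNAs 3 let-7 pairs were called, within the 335. With the level 1 let-7 pair was called, within the 173 of 2080. Leaving out 1 mouse gave 1 to 3 let-7 pairs, with 1 without sham mouse 2, 3 or 5 and without CLP mouse 1, 3, 5, 6 or 7.

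Of the 24 alternatives to the scaled fit, the sign changed in 5 for let-7b-5p, in 4 for let-7i-5p and in 1 for let-7d-5p. It changed in 0 for let-7e-5p and let-7g-5p. In the scaled fit let-7b-5p turned positive with the authors' values (0.12), at the 75th percentile (0.13), with quantile normalization (0.17) and without the 2 weakest sham mice (0.0100), and ranged from -0.20 to 0.090 (without sham mouse 4) leaving out 1 mouse. let-7i-5p turned positive in the same fits (0.042, 0.048, 0.038 and 0.077). let-7d-5p ranged from -0.083 (without sham mouse 5) to 0.38 leaving out 1 mouse. On the unscaled signal let-7g-5p was at -0.16 with the level as a covariate. The ratio of let-7b-5p to let-7i-5p was at -0.067 without the 2 weakest sham mice, -0.14 with the level and -0.073 to 0.19 leaving out 1 mouse. With the authors' values and at the 75th percentile all 5 members shifted up by the same amount from the main fit. The cause of the other changes was not tested.

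The samples' replicate numbers are not stated to pair them, and deviations of same-numbered samples correlated at -0.34 to 0.29 over the 5 numbers. With the replicate number as a block, limma called 2 miRNAs higher and 4 lower, 252 pairs and 0 let-7 pairs. The unadjusted limma p was under 0.05 for 2 let-7 pairs, a count not taken over all pairs. let-7g-5p was at -0.75 (limma adjusted p = 0.0841), let-7e-5p over let-7g-5p at 1.16 (0.0686 by the same test), and let-7b-5p over let-7i-5p at -0.043. In that fit CLP mice 6, 7 and 8 have no sham partner and do not bear on the change. Dim probes limit the panel more than the family, whose lowest value was 23.5 units.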
